A study of Glycine max with 5 samples.

Results

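The genes described are 8 soybean genes of photoperiod response and the circadian clock. They are the maturity genes E2, E3, E4 and J and the 4 copies of LHY. They were chosen by gene ID, not by their values, though earlier results of these data were known. All 8 IDs were found among the 47095 genes of the expression table. The study applied bisulfite-induced deletion sequencing (BID-seq), which maps the modified base pseudouridine, to poly(A)-enriched RNA from shoots of soybean genotype W82 (Williams 82), young plants grown in soil under a long daily light period. The labels give 3 treated and 2 input libraries, all of the same genotype and tissue. The treatment in BID-seq is with bisulfite, and no mutant or other treatment enters. The gene expression table has 2 columns of shoot values, called replicate 1 and replicate 2 here. Each name fits an input and a treated library equally. The number of columns equals that of the input libraries, but no label links them, so which of the libraries they come from is not known.

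Values are TPM, transcripts per 1000000, which count reads per base of gene length and scale each replicate to the same total. Levels can be compared between genes as far as the length in the table fits the transcripts present, which was not tested. How that length was defined is not given in the sources used here. With 1 tissue and no contrast, no test of a condition could be made, and each value is given with its spread over both replicates. The study's methods speak of biological replicates, and whether each came from 1 plant or from pooled plants is not given in the sources used here. TPM times gene length rose in even steps, and 1 step was taken as 1 read. By that measure replicate 1 held 24230339 reads in genes and replicate 2 held 5769209, so that replicate 1 was 4.20 times deeper. Intervals are 95% exact Poisson intervals for levels and exact binomial (Clopper-Pearson) intervals for ratios of copies. Both kinds of interval describe counting error alone and leave out variation between libraries. PCR copies of 1 molecule can be read more than once, so the intervals may be too narrow even for counting error.

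The circadian clock is a loop of regulators that repress each other in turn over the day. LHY is a MYB transcription factor that accumulates around dawn and, in Arabidopsis, represses genes of the evening such as TOC1 and GIGANTEA. ELF3 forms the evening complex with ELF4 and LUX, which represses its targets at dusk, and GIGANTEA is a large protein of the late day that in Arabidopsis acts with FKF1 on the flowering pathway. Phytochrome A is a photoreceptor for red and far-red light. In soybean, the phytochromes E3 and E4 promote the expression of E1, a repressor of the florigen genes FT2a and FT5a, under long days, while J restrains E1. Levels of clock genes vary over the day, and the hour of harvest is not given in the sources used here.

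The label of the tissue was checked against marker genes named by RefSeq. The 4 genes of green tissue, for the small subunit of Rubisco and for chlorophyll-binding proteins, summed to 4858 TPM in replicate 1 and 9431 TPM in replicate 2. The 5 leghemoglobin genes of nodules summed to 0.136 and 0 TPM, with 3 of them listed at 0 in both replicates. The 9 genes of seed storage proteins, glycinins and conglycinins, summed to 0.665 and 0.597 TPM, and none reached 1 TPM.

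The 4 maturity genes were all more abundant than any LHY copy, in both replicates. Their lowest value was 16.1 TPM, and the highest value of an LHY copy was 6.45 TPM. Of the 8 genes, 5 lay above the median of all genes, which was 5.85 TPM, and 6 reached 1 TPM in both replicates. Over all genes, 70.9% reached 1 TPM in both replicates. The highest of the 8 genes, J, exceeded the lowest, LHY2b, 179-fold.

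**Figure D1:**
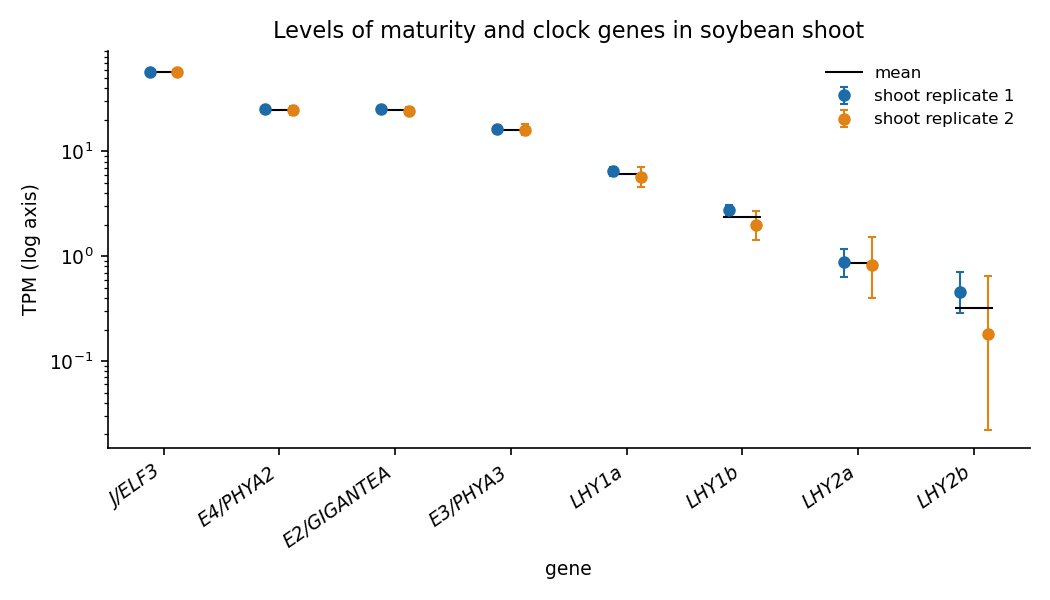
Levels of the 8 genes in TPM on a log axis. Points are replicate 1 (left of each pair) and replicate 2, bars are 95% exact Poisson intervals from the reads, and the dash is the mean. J lies at the top with a mean of 57.2 TPM and LHY2b at the bottom with 0.319 TPM, where the interval of replicate 2 is the widest.

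Among the photoreceptors, E4 was more abundant than E3. E4 (PHYA2, Glyma.20G090000) lies on chromosome 20 from 33190116 to 33195819 on the plus strand (Wm82.a4.v1, as for all positions). It had 25.2 TPM (24.1 to 26.4) in replicate 1 and 24.6 TPM (22.4 to 27.0) in replicate 2, from 1909.5 and 449.83 reads. Its mean was 24.9 ± 0.450 TPM (SD, n = 2), and 81.4% of all genes were lower. The values of both replicates were close, and the interval of the shallower replicate held that of the deeper one.

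E3 (PHYA3, Glyma.19G224200) lies on chromosome 19 from 48157782 to 48166616 on the plus strand. It had 16.2 TPM (15.2 to 17.2) in replicate 1 and 16.1 TPM (14.2 to 18.3) in replicate 2, from 1025.67 and 247 reads. The mean was 16.2 ± 0.0406 TPM (SD, n = 2), above 72.4% of all genes. The replicates of E3 did not overlap with those of E4 or of any other of the 8 genes.

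E2 (GIGANTEA, Glyma.10G221500) lies on chromosome 10 from 45369898 to 45391468 on the plus strand and spans 21571 bases, the longest span of the 8 genes, with a length of 5429 bases in the table. It had 25.5 TPM (24.4 to 26.6) in replicate 1 and 24.2 TPM (22.0 to 26.5) in replicate 2, from 1977.22 and 454 reads. The mean of 24.8 ± 0.899 TPM (SD, n = 2) placed it above 81.3% of all genes. E2 and E4 were neighbours in the order of levels and did not differ beyond their spread. Replicate 1 gave E2 the higher value and replicate 2 gave it to E4.

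J (ELF3, named ELF3A by RefSeq, Glyma.04G050200) was the most abundant of the 8 genes. It lies on chromosome 4 from 4068643 to 4074156 on the minus strand. It had 57.3 TPM (55.3 to 59.4) in replicate 1 and 57.1 TPM (53.0 to 61.4) in replicate 2, from 3030.33 and 729 reads. With a mean of 57.2 ± 0.185 TPM (SD, n = 2) it ranked 3559 of 47095 genes, above 92.4% of them. J exceeded E4, the next in order, 2.30-fold, and their replicates did not overlap. The gene ranked just above J was BZIP126 (57.2 TPM) and the one just below, Glyma.03G030800, also had a mean of 57.2 TPM.

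The LHY copies formed a graded series below the maturity genes. LHY1a (Glyma.16G017400) lies on chromosome 16 from 1514268 to 1528232 on the minus strand. It had 6.45 TPM (5.83 to 7.12) in replicate 1 and 5.74 TPM (4.56 to 7.08) in replicate 2, from 391.96 and 84.33 reads. Its mean was 6.09 ± 0.50 TPM (SD, n = 2), near the middle of the table, above 50.8% of genes.

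LHY1b (Glyma.07G048500) lies on chromosome 7 from 4094557 to 4107269 on the minus strand. It had 2.74 TPM (2.41 to 3.11) in replicate 1 and 2.01 TPM (1.44 to 2.68) in replicate 2, from 244.72 and 43.33 reads. The mean was 2.37 ± 0.518 TPM (SD, n = 2), above 36.4% of genes. At 6248 bases it is the longest of the 8 genes in the table, against 4254 bases for LHY1a.

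LHY2a (Glyma.19G260900) lies on chromosome 19 from 50922013 to 50935706 on the plus strand. It had 0.881 TPM (0.640 to 1.18) in replicate 1 and 0.828 TPM (0.397 to 1.52) in replicate 2, from 44.03 and 10 reads. Its mean was 0.855 ± 0.0375 TPM (SD, n = 2), above 26.0% of genes.

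LHY2b (Glyma.03G261800) lies on chromosome 3 from 46674152 to 46682900 on the plus strand. It had 0.457 TPM (0.285 to 0.704) in replicate 1 and 0.181 TPM (0.0220 to 0.656) in replicate 2, from 20.83 and 2 reads. Its mean of 0.319 ± 0.195 TPM (SD, n = 2) was the lowest of the 8 genes, at rank 38285 and above 18.7% of genes. Its neighbours in rank were Glyma.11G108000 and Glyma.18G118950, both with a mean of 0.319 TPM. The Poisson intervals of LHY2a and LHY2b overlapped in both replicates, while the replicate values themselves did not overlap.

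**Figure D2:**
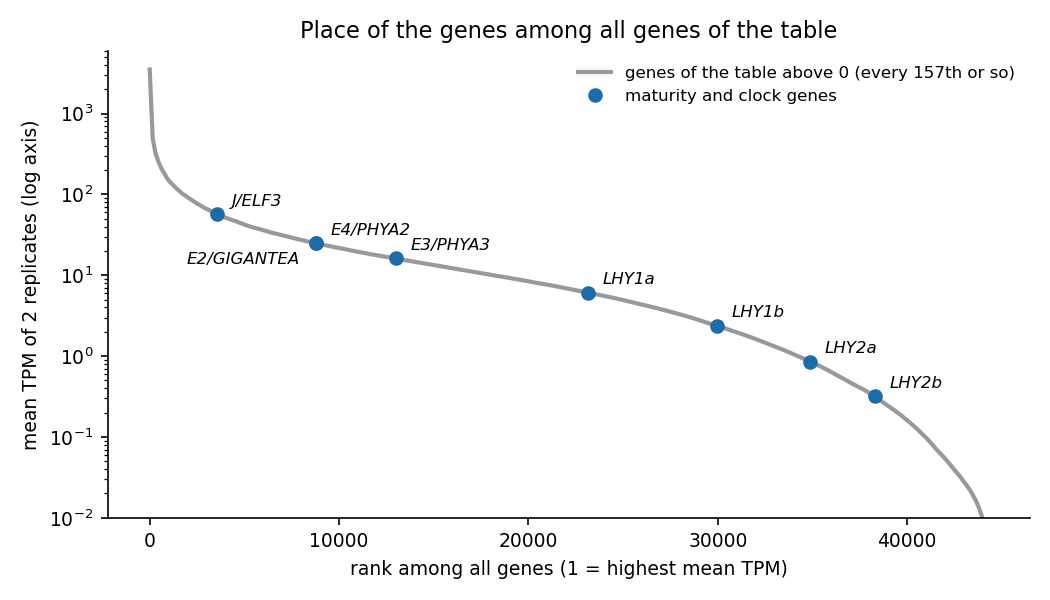
Mean TPM on a log axis against rank among all genes, with rank 1 the highest. The grey line follows a regular sample of the genes above 0 and the points are the 8 genes. J stands at rank 3559, E2 and E4 coincide at ranks 8784 and 8766, and the LHY copies spread from rank 23166 to rank 38285.

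The 4 LHY copies together reached 10.5 TPM in replicate 1 and 8.76 TPM in replicate 2, a mean of 9.64 ± 1.25 TPM (SD, n = 2). Their sum was thus below the level of E3 alone. LHY1a supplied 61.3% of the sum in replicate 1 and 65.5% in replicate 2. LHY1b supplied 26.0 and 22.9%, LHY2a 8.37 and 9.45%, and LHY2b 4.34 and 2.07%. The LHY1 pair together was 6.87 times the LHY2 pair in replicate 1 and 7.68 times in replicate 2.

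Soybean carries most genes in duplicate, and the balance between copies was taken as the ratio of their TPM within a replicate. The copies of E2, E4 and J were taken from a list and not from a comparison of sequences. Whether each is the closest copy was not tested. LHY1a exceeded LHY1b in both replicates, 2.35-fold (2.00 to 2.77) in replicate 1 and 2.86-fold (1.96 to 4.25) in replicate 2. The mean log2 ratio was 1.37 ± 0.20 (SD, n = 2), and both intervals lay above equality.

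LHY2a exceeded LHY2b 1.93-fold (1.11 to 3.39) in replicate 1. In replicate 2 the ratio was 4.56 (0.972 to 42.8), and this interval included equality with LHY2b at 2 reads. The log2 ratio was 0.95 in replicate 1 and 2.19 in replicate 2, so the size of this imbalance was poorly determined. LHY copies with the suffix a were the higher ones in both pairs.

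For E2 the balance ran the other way. RefSeq names another gene GIGANTEA (Glyma.20G170000) on chromosome 20, and this copy had 31.3 TPM in replicate 1 and 27.9 TPM in replicate 2. The ratio of E2 to it was 0.813 (0.769 to 0.860) in replicate 1 and 0.869 (0.771 to 0.980) in replicate 2, with a mean log2 ratio of -0.25 ± 0.07 (SD, n = 2). E2 held 45.7% of the sum of both on average, and its replicates did not overlap with those of the copy. Another ID listed as a possible copy, Glyma.16G163200, carries no gene name in RefSeq and had 37.8 TPM in replicate 1 and 36.3 TPM in replicate 2, above both E2 and the named copy. The share of E2 therefore refers to the named copy alone.

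E4 exceeded the copy named PHYA (Glyma.10G141400, chromosome 10), which had 18.5 TPM in replicate 1 and 19.3 TPM in replicate 2. The ratio was 1.37 (1.27 to 1.46) in replicate 1 and 1.27 (1.11 to 1.47) in replicate 2, a mean log2 ratio of 0.40 ± 0.07 (SD, n = 2). Over the 3 listed phytochrome A genes in the table, E3 held 27.1 and 26.9% of the summed level, E4 42.1 and 41.0%, and PHYA 30.8 and 32.1%. E3 was thus the lowest of the 3 in both replicates. The listed copy of E3 (Glyma.03G227300) was not in the table, and no balance was obtained for E3.

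J exceeded ELF3B (Glyma.14G091900, chromosome 14), which had 25.1 TPM in replicate 1 and 23.7 TPM in replicate 2. The ratio was 2.28 (2.12 to 2.46) in replicate 1 and 2.41 (2.07 to 2.82) in replicate 2, and the mean log2 ratio was 1.23 ± 0.06 (SD, n = 2). J held 70.1% of the sum of both. Another ID listed as a possible copy, Glyma.17G231600, also without a gene name in RefSeq, had 32.4 TPM in replicate 1 and 28.6 TPM in replicate 2, below J and above ELF3B, and it does not enter this share.

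**Figure D3:**
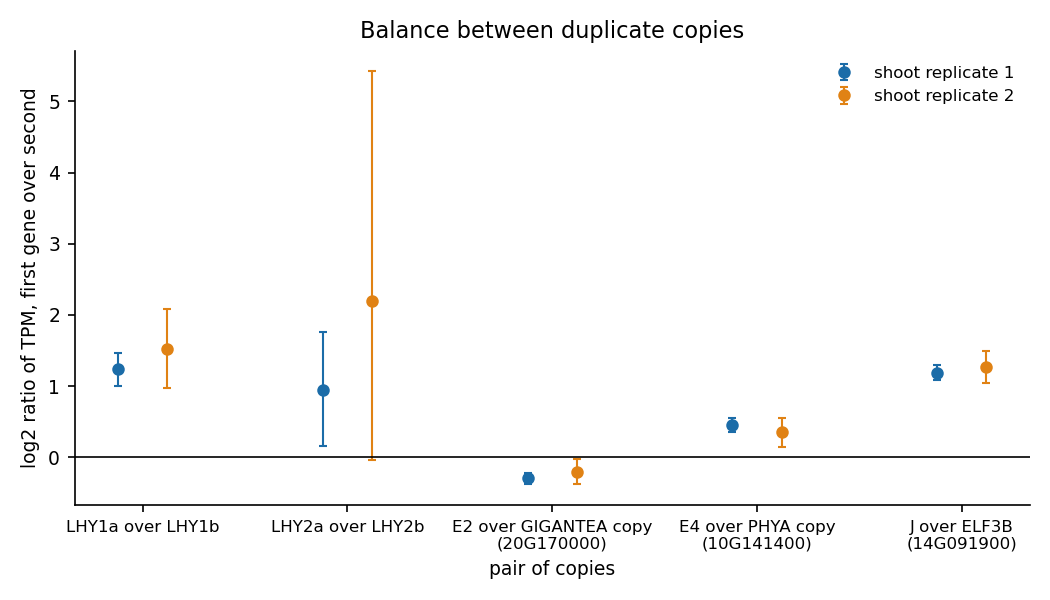
Log2 ratio of TPM between copies, first gene over second, for 5 pairs. Points are replicate 1 (left of each pair) and replicate 2, with 95% exact binomial intervals, and the line at 0 marks equal levels. E2 is the only first gene of the 5 below its copy, and the pair LHY2a and LHY2b has by far the widest interval, reaching from -0.04 to 5.42 in replicate 2.

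Values of near-identical copies depend on how shared reads were counted, and the rule is not given in the sources used here. Some reads were entered as fractions, since read numbers were whole at 39.1% of genes with 1 to 50 reads in replicate 1 and at 49.6% in replicate 2. In replicate 1 all 8 genes had a read number that was not whole. In replicate 2 it was not whole for E4, LHY1a and LHY1b, and whole for the other 5. How many reads of these genes were entered in part, and whether their copies took the remainder, was not tested, so the ratios between copies are uncertain to that extent.

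The replicates differed little for the abundant genes and more for the LHY copies. The log2 ratio of replicate 1 to replicate 2 was 0.01 for E3 and for J, 0.04 for E4 and 0.07 for E2. It was 0.17 for LHY1a, 0.45 for LHY1b, 0.09 for LHY2a and 1.33 for LHY2b. Counting error alone gives a standard deviation of 0.24 for LHY1b and 1.07 for LHY2b. The ratio was within 1 such standard deviation for 6 genes and within 2 for all 8.

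Each gene was also set beside the 1000 genes nearest to it in level. The absolute log2 ratio was at or below the median of these neighbours for 6 of the 8 genes. The exceptions were LHY1b, with a neighbour median of 0.27 and a 90th percentile of 0.74, and LHY2b, with 0.66 and 1.95. No gene exceeded the 90th percentile of its neighbours. All 8 genes were higher in replicate 1, as were 67.9% of all genes above 0 in both replicates. In replicate 2 the 100 highest genes took 12.8% of the total against 9.30% in replicate 1. The Rubisco gene RBCS1 had 4473 TPM in replicate 2 and 2107 TPM in replicate 1. The part of this in the values of the 8 genes was not tested.

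**Figure D4:**
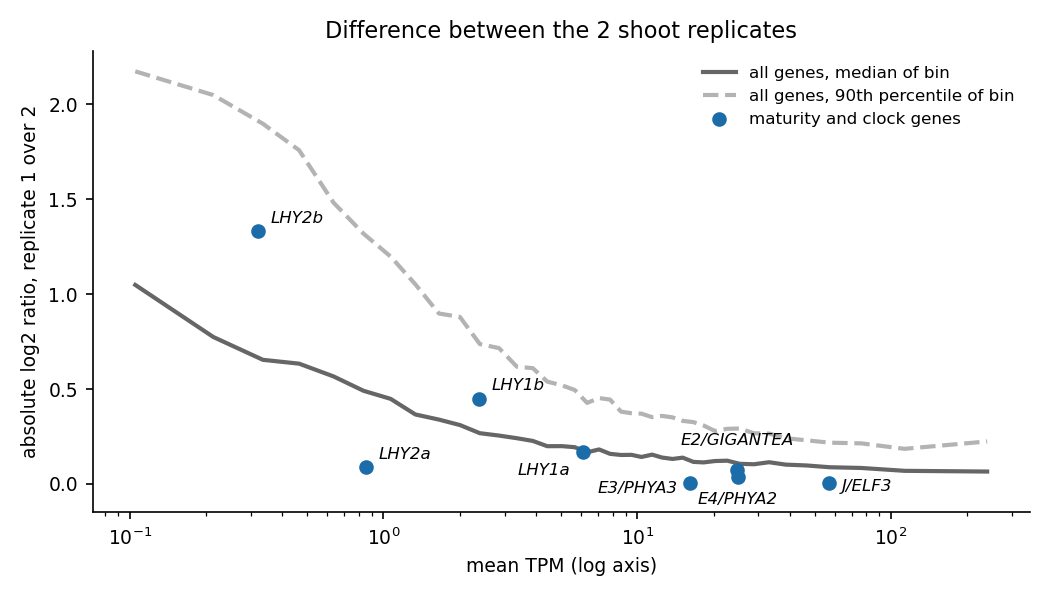
Absolute log2 ratio between the replicates against mean TPM on a log axis. Lines are the median and the 90th percentile of all genes above 0 in both replicates, in 40 bins of level, and points are the 8 genes. LHY2b at 1.33 and LHY1b at 0.45 lie between the lines, and the other 6 lie at or below the median of their neighbours.

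Other genes of the pathway were taken from a list of 35 IDs, of which 30 were in the table and 23 of these carry a gene name in RefSeq. Of the 23 named genes, 16 reached 1 TPM in both replicates, against 70.9% of all genes. The median of the 23 was 17.2 TPM. The 7 genes without a name, not counted here, all reached 1 TPM in both replicates.

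The 6 named genes of the evening complex and GIGANTEA ranged between 23.5 TPM for LUXB and 98.9 ± 9.45 TPM for ELF4A (SD, n = 2). LUXC, a DNA-binding partner in the complex, had 64.1 TPM in replicate 1 and 61.8 TPM in replicate 2, above J in both replicates. ELF4A and ELF4B, small proteins that bind ELF3 in Arabidopsis, had means of 98.9 and 49.4 TPM.

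Pseudo-response regulators are clock repressors that follow LHY in the day. The list held 2 with a gene name, PRR3B with 35.3 ± 1.37 TPM and TOC1 with 24.6 ± 0.318 TPM (SD, n = 2 each). The 3 listed ones without a gene name were higher than both, with means of 48.2, 41.0 and 40.7 TPM. TOC1 alone was above the sum of the 4 LHY copies in both replicates, with 24.8 and 24.4 TPM.

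Levels of the E1 family, downstream of the phytochromes, were low. E1, the legume-specific repressor of flowering, had 2.79 TPM in replicate 1 and 2.28 TPM in replicate 2, from 35.5 and 7 reads. Its relatives E1LA and E1LB had means of 1.11 and 0.732 TPM. E1 lay near LHY1b in level.

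The FT family encodes florigens and their relatives. The list held 10 IDs of this family, of which 3 were not in the table. Of the 7 named genes found there, 2 reached 1 TPM in both replicates, against 70.9% of all genes. FT2A was the highest with 8.27 TPM in replicate 1 and 7.62 TPM in replicate 2, and FT1B had 2.87 and 1.86 TPM. FT5A had 0.399 and 0.472 TPM, from 7 and 2 reads. FT5B was the lowest with 0.103 TPM, or 1 read, in replicate 1, and it was listed at 0 in replicate 2.

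The 3 named CONSTANS-like genes, relatives of the Arabidopsis regulator of FT, ranged between 5.05 TPM for COL13 and 30.1 TPM for COL2A. FKF1, a blue-light receptor that binds GIGANTEA in Arabidopsis, had 17.3 TPM in replicate 1 and 17.1 TPM in replicate 2.

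**Figure D5:**
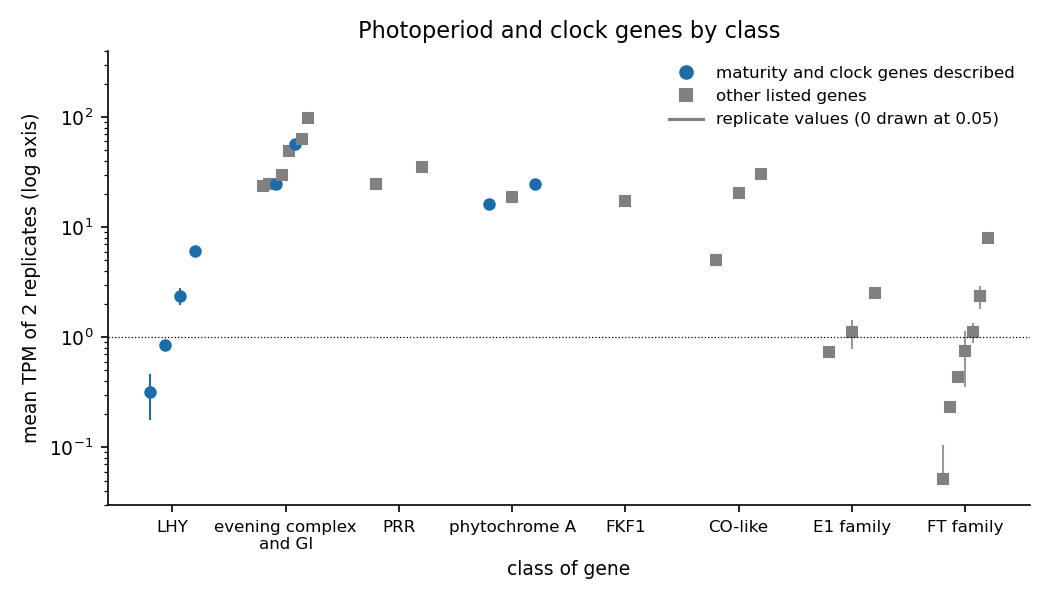
Mean TPM on a log axis by class of gene, for the 8 genes described (circles) and the 23 other listed genes with a RefSeq name (squares). Vertical lines join the values of both replicates with a value of 0 drawn at the level the legend gives, and the dotted line marks 1 TPM. Genes of the evening complex and GIGANTEA all lie above 20 TPM, while LHY copies, the E1 family and the FT family all lie below 10 TPM.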

How the data were processed

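BID-seq libraries were made from poly(A)-enriched shoot RNA, and the authors deposited 1 expression table of 47095 gene models (Wm82.a4.v1). Its 2 shoot columns were taken as TPM deposited by the authors, since each sums to 1000000. Aligner, counting and which libraries entered were not given in the sources used here. The members and lists were chosen with earlier results of these data known.

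TPM times length was a multiple of 0.01 of 1 step (tolerance 0.001) at 100% of genes with 1 to 50 steps, and 1 step was taken as 1 read. In simulated data with 47095 genes, read numbers were built on the same steps of 0.01, and the deepest genes were not scored. Of the scored read numbers, 100% were recovered in either replicate. Because the simulation assumed these steps, it cannot show that 1 step is 1 read. Intervals used reads rounded to whole numbers. Gene names came from RefSeq (Glycine_max_v4.0) by overlap of positions, at least 50% of the joint span. This matched 40260 genes, and the 8 members overlapped by 88.3 to 99.2%.

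Genes named were the 8 members, their listed copies, the highest and lowest gene with a RefSeq name in each class, the rank neighbours of J and LHY2b, and examples chosen after their values were seen. Alternatives were other pseudocounts, thresholds and scaling, levels without gene length, and each replicate alone. The list of pseudouridine sites was not used, since its assembly differs from that of the gene models. Sequences of the genes were not analysed here. Intervals came from scipy 1.17.1, tables were handled with pandas 2.3.3 and numpy 2.4.6 under Python 3.11.15, and plots were drawn in matplotlib 3.10.9.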

Additional observations from a re-analysis of the deposited data

How the results depend on the processing

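Over the 5 pairs of copies, no log2 ratio changed sign without gene length. The other runs could not change a sign, since each ratio had the same sign in both replicates. Leaving out gene length changed the unit of the levels, so the medians of the 8 genes, 11.1 TPM and 29.0 reads per 1000000, cannot be compared. It moved the percentiles of all 8 genes by more than 1 SD. The median percentile of the 8 genes was 61.6, and it was 77.1 when ranked by reads without gene length and 45.9 among genes at or above 1 TPM in both replicates, with LHY2a and LHY2b, which are not in that set, entered at 0. The 6 genes in the set had a median percentile of 67.4 there and 76.9 among all genes. Without gene length the log2 ratio was 0.82 for LHY1a over LHY1b, -0.67 for E2 over GIGANTEA and 1.74 for J over ELF3B. With a pseudocount of 1 it was 1.08 for LHY1a over LHY1b and 0.50 for LHY2a over LHY2b, where the levels are near the pseudocount. A pseudocount of 0.1, equal upper quartiles in both replicates, and summed reads (chosen after seeing the data) moved no ratio or level by more than 1 SD. E4 and E2 changed places without replicate 2 and without gene length. The ratio of LHY2a to LHY2b was 0.95 on the log2 scale without replicate 2 and 2.19 without replicate 1. Of the 23 named genes of the list, 16 reached 1 TPM in both replicates, 22 reached 0.1 TPM and 13 reached 5 TPM, and 17 reached 1 TPM without replicate 1 and 18 without replicate 2. No paired analysis was possible because the table holds 1 group and no test was made. The planned search for pseudouridine windows in proteins was not run, as no protein sequences were used here. For the same reason the closest copies of E2, E3, E4 and J were not chosen by protein comparison as planned. Listed copies were taken instead.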

Other observations

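Further light receptors and clock genes with a RefSeq symbol were looked up after the values above had been seen. Among photoreceptors, CRY1a, a blue-light receptor, had 32.2 TPM in replicate 1 and 29.0 TPM in replicate 2, above E4. CRY2B had 15.1 and 13.8 TPM, and PHYB, a red-light receptor, had 12.9 TPM in both. PHYE1 was the lowest with 4.94 and 4.06 TPM. Both E3 and E4 were above these PHYB and PHYE1 genes in both replicates. Any other loci of these receptors were not looked up.

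PRR3A, a pseudo-response regulator, had 37.5 TPM in replicate 1 and 38.0 TPM in replicate 2, above all 8 genes but J. The 3 genes named ZTL, ZTL1 and ZTL2, relatives of the FKF1 photoreceptor, had means of 36.9, 24.4 and 27.1 TPM. CDF1, whose Arabidopsis namesake represses CONSTANS, had a mean of 10.1 TPM, close to the sum of the 4 LHY copies.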
